A study of Saccharomyces cerevisiae with 8 samples.

Results

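Untreated sgs1 null yeast was compared with untreated wild-type yeast, 2 arrays against 2, out of 8 arrays in the series. The 4 arrays were chosen by their sample descriptions alone. All 8 arrays measured total RNA of Saccharomyces cerevisiae harvested in log phase, in a study of yeast ageing. The other 4 arrays held the same strains, sgs1 null and wild type, grown with MMS, 2 arrays each. MMS is methyl methanesulfonate, an agent that alkylates DNA. The labels gave no strain background, no account of how the null allele was made, no growth medium, and no dose or time of MMS. One array of each group carried the mark "rep" and is called replicate 2 here. The labels do not say if both arrays of a strain were separate cultures or repeats of 1 sample. The p-values therefore reflect the spread between arrays, which may be technical.

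SGS1 encodes the RecQ helicase of budding yeast, the relative of the human helicases altered in Werner and Bloom syndromes. With the topoisomerase Top3 and its partner Rmi1 it takes apart recombination intermediates without crossing over. It also acts at stalled replication forks and in the resection of broken ends. Cells without it recombine too often, are sensitive to MMS and have a shortened replicative lifespan.

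Each value below is an intensity after the 8 arrays were put on one scale by quantile normalisation. Values under the 10th percentile, 97.1, were raised to that floor. Where both arrays of a strain are at the floor, the level there is only a bound. Such a pair also adds no spread to the fit, so the standard error and p may be too small. Differences are log2 values, sgs1 null minus wild type, each with its standard error from a limma fit over all 8 arrays. Of the 7641 features tested, 5580 were genes with 1 symbol. Deposited array means lay between 1906 and 2000. Replicates of untreated sgs1 null had a rank correlation of 0.959 and those of untreated wild type 0.965. The first arrays of the 2 strains correlated at 0.973, more closely than either pair of replicates, and the second arrays at 0.936. The number of arrays limits the precision of every comparison.

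The array signal of the deleted gene followed the labels. SGS1 was at the floor on both untreated sgs1 null arrays and read 475 and 882 on the wild-type arrays. Before scaling, the deposited intensities were 1.7 and 2.9 in sgs1 null against 444.2 and 777.3 in wild type. The null arrays thus lay at background and both wild-type arrays well above it. SGS1 was at least 6.67-fold lower in sgs1 null, a log2 difference of -2.74 ± 0.35 (SE). The adjusted p was 0.134, above the threshold of 0.05, and the 2 wild-type arrays differed widely from each other. With no floor on low values SGS1 passed the threshold. On the MMS arrays it was at the floor in both sgs1 null samples, against 354 and 546 in wild type.

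None of the helicase's partners passed the threshold. The list of RecQ and dissolution genes had 17 members, SGS1 among them. Their median log2 difference was 0.05, against 0.00 over all features. Under median centring it was -0.02, against -0.05 over all features there. Of the 17, 0 passed the threshold over all features, where 2 of 7641 features passed (0.0262%). TOP3, the topoisomerase that works with Sgs1, was at the floor on all 4 untreated arrays, so it could not be compared. RMI1, the third subunit, read 612 and 530 in sgs1 null and 619 and 364 in wild type, and its groups overlapped. TOP1, the main enzyme that relaxes supercoils, read 1043 and 1353 against 1306 and 1081. SRS2, another DNA helicase, ranged more widely between the wild-type arrays, 301 and 837, than between the strains. Without overlap, 4 members were higher and 3, SGS1 included, were lower, against 19.3% and 19.6% of all features. SMC5, of a complex that holds recombining chromosomes, had the highest difference, with 580 and 321 against 357 and 215 (0.64 ± 0.37, adjusted p = 0.610), and its groups overlapped. RRM3, a helicase that helps forks past obstacles, was one of the 3, with 365 and 369 in sgs1 null against 446 and 559 in wild type. The log2 difference of RRM3 was -0.45 ± 0.44 (SE), adjusted p = 0.777. DNA2, a nuclease and helicase of end resection, read 237 and 316 against 201 and 199, a difference of 0.45 ± 0.38, adjusted p = 0.729. MUS81, a nuclease that cuts branched DNA and that cells without Sgs1 depend on, read 315 and 492 in sgs1 null and 243 and 138 in wild type. Its log2 difference was 1.10 ± 0.42 with an adjusted p of 0.465, and on the MMS arrays the difference was -0.07.

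The genes on either side of SGS1 were looked at because a deletion can disturb its neighbours. Of the 5 genes on each side by position on the chromosome, CMC4 was not measured. RTP1, which takes part in the assembly of RNA polymerase II, read 663 and 994 in sgs1 null and 263 and 229 in wild type. That is a log2 difference of 1.72 ± 0.23, adjusted p = 0.140, and on the MMS arrays the difference was 0.78. GCV2, the glycine-cleaving subunit next to SGS1, read 1086 and 1467 against 2420 and 3888, a difference of -1.28 ± 0.45 (adjusted p = 0.455). The other immediate neighbour, SPG5, read 3464 and 3552 against 2653 and 3665, and its groups overlapped. RPL36A, a ribosomal protein gene, read 7579 and 5091 against 12350 and 9929, a difference of -0.83 ± 0.22 (adjusted p = 0.350). HSC82, the constitutive Hsp90 chaperone, differed by -0.02 ± 0.10, and GYL1 was at the floor on all 4 arrays. None of the measured neighbours passed the threshold.

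Over all features the comparison made few calls. Only 2 of 7641 passed the adjusted threshold of 0.05, 1 higher and 1 lower in sgs1 null, and 0 of the 5580 named genes did. At an unadjusted p under 0.05 there were 404 features higher (5.29%) and 401 lower (5.25%). A further step, to an adjusted p under 0.1, gave 19 features, 15 higher and 4 lower, of which 13 were named genes. The central 90% of all differences lay between -0.70 and 0.88, and the median standard error was 0.28. Both groups were free of overlap in 1476 features that were higher (19.3%) and 1501 that were lower (19.6%). "Rose" and "fell" are therefore kept for features past the threshold, and the named genes are given with their values as measurements that did not pass it.

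Both features that passed were probe sets without a gene annotation. Probe set 3982_at rose in sgs1 null, where it read 13707 and 12735, while both wild-type arrays were at the floor. The increase was at least 136-fold, a log2 difference of 7.09 ± 0.08 (adjusted p = 2.36e-05). The probe set read 16232 and 17161 in sgs1 null with MMS and was at the floor in wild type with MMS. The wild-type arrays, all at the floor, thus added no spread, and the standard error and p may be too small. The deposited intensities of 3982_at in wild type were 7.9 and 11.2 untreated and 5.2 and 3.1 with MMS. No other feature separated the strains so widely on both sets of arrays. It passed the threshold under each left-out array, and lost it where the fit was limited to the 4 untreated arrays with the replicate number as a block, which made 0 calls. It was left out by the filter where no floor was set and the dimmest 25% of features were removed.

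Probe set 10454_at fell in sgs1 null. It read 113 and 114 there against 693 and 791 in wild type, 6.52-fold lower, with a log2 difference of -2.71 ± 0.12 (adjusted p = 0.0145). In MMS it lay at 97.1 in both sgs1 null samples and at 97.1 and 117 in wild type, so that both strains were near the floor. Its strain difference changed by 2.57 ± 0.17 between untreated and MMS arrays, and the interaction had an adjusted p of 0.205. The call was lost when any 1 of the 4 untreated arrays was left out, and also without either sgs1 null MMS array.

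The genes with the smallest p were chosen by rule, 10 in each direction among named genes whose groups did not overlap. All of the 10 higher genes had an adjusted p of 0.0858, and the 10 lower genes had values from 0.0858 to 0.161. The higher set held transporters, a subtelomeric gene and genes of unrelated roles, and many of its members were also higher in sgs1 null on the MMS arrays, which entered none of these differences.

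**Figure D1:**
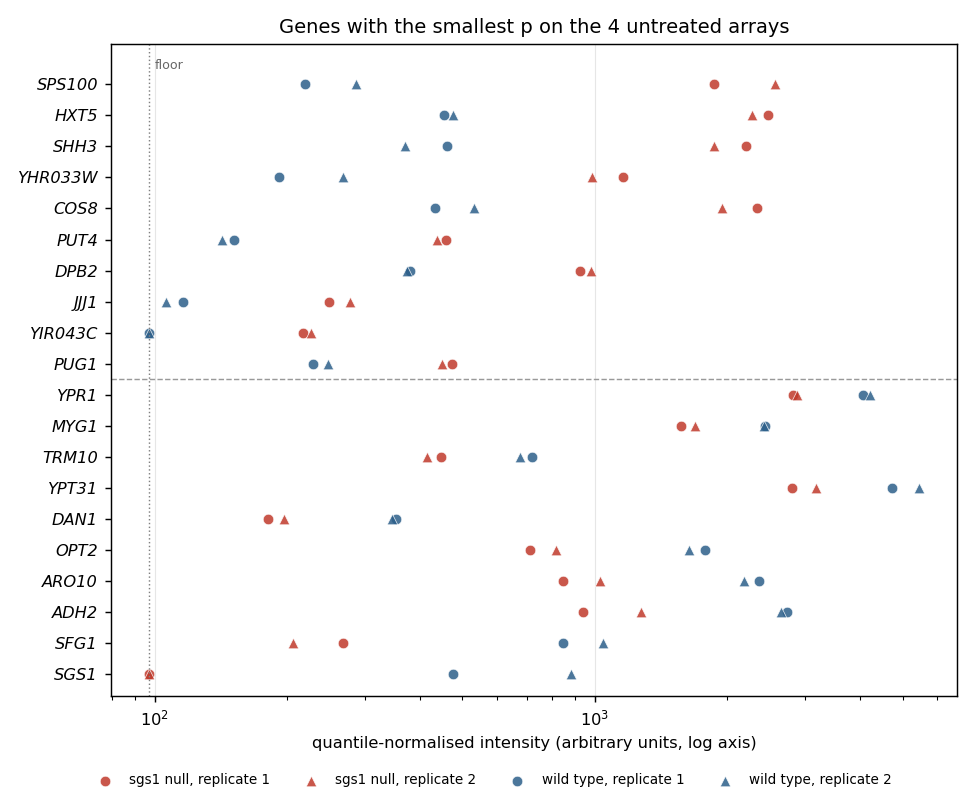
Quantile-normalised intensity (arbitrary units, log axis) of the 20 named genes with the smallest p, 10 higher above the dashed line and 10 lower below it, on each of the 4 untreated arrays. Each point is 1 array, red for sgs1 null and blue for wild type, and the dotted line is the floor at 97.1. In every row the red and blue points are separate, and in SPS100 the gap is widest among the higher genes, with 1863 and 2571 against 219 and 287.

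Of the genes of nitrogen use, PUT4 was in this set. PUT4, the proline permease, read 458 and 438 in sgs1 null and 151 and 142 in wild type, a 3.06-fold difference (log2 1.61 ± 0.14). On the MMS arrays it read 359 and 447 against 128 and 145, almost the same difference at 1.55. PUT1, the proline oxidase that starts proline breakdown, read 2078 and 2161 against 1153 and 1016, a log2 difference of 0.97 ± 0.10 (adjusted p = 0.0992). MEP2, an ammonium permease that also acts as an ammonium sensor, read 2019 and 2499 against 871 and 790, a difference of 1.44 ± 0.17 (adjusted p = 0.126). With MMS it read 1608 and 1264 against 258 and 267, a difference of 2.44. Averaged over untreated and MMS arrays, a contrast added after the data were seen, 12 of 7641 features passed the threshold (0.157%), 9 higher and 3 lower. PUT4, PUT1 and MEP2 all rose in that average, with adjusted p of 0.0209, 0.0323 and 0.0209. Each named gene called in that average was lost when any 1 of the 8 arrays was left out, which left 1 call, probe set 3982_at.

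The wider list of genes under nitrogen catabolite repression, which yeast switches on when good nitrogen sources run low, was less even. Of 23 measured members, 0 passed the threshold untreated, 16 were above 0 and 7 below, with a median of 0.18 against 0.00 over all features. The groups did not overlap in 10 members that were higher and 3 that were lower, against a background of 19.3% and 19.6%. MEP1 and MEP3, the other ammonium permeases, differed by 0.84 ± 0.28 and 0.42 ± 0.13, so all 3 MEP genes were higher on both sgs1 null arrays. DAL4, the allantoin permease, read 505 and 446 against 282 and 211. GAP1, the general amino acid permease, differed by only 0.09 ± 0.14 untreated and by 1.89 with MMS. CAR2, an enzyme of arginine breakdown, went the other way, with 2867 and 2947 against 3939 and 7712. The list's median was 0.06 without replicate 2 of untreated sgs1 null and 0.42 without replicate 1, so that it rested largely on 1 array. The median was 0.50 with MMS, with 19 of 23 above 0. These MMS arrays share no sample with the untreated comparison, although the same fit estimated their spread.

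Genes of methionine synthesis and sulfur assimilation showed a like pattern. Yeast makes methionine by reducing sulfate and joining the sulfide to a carbon chain derived from homoserine, under the activators Met4 and Met28. MET2, which acetylates homoserine, read 2268 and 2143 in sgs1 null and 813 and 580 in wild type, a log2 difference of 1.68 ± 0.24 (adjusted p = 0.160). MET28, a cofactor of Met4, read 1792 and 2696 against 928 and 685, a difference of 1.46 ± 0.27 (adjusted p = 0.231). SAM1, an S-adenosylmethionine synthetase, read 3191 and 4001 against 1602 and 1450. These 3 genes were each clear of overlap and at least 2-fold apart.

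Of the 21 members measured, 0 passed the threshold, 18 were above 0, and the median was 0.25. The groups did not overlap in 9 higher members and 1 lower one, against 19.3% and 19.6% of all features. STR3, a cystathionine lyase, and MUP3, a low-affinity methionine permease, differed by 1.20 ± 0.36 and 1.26 ± 0.31 and complete the 5 members that were at least 2-fold higher without overlap. At that mark were 3.21% of all features and 1.86% of named genes. STR3 and MUP3 were named after their values were seen. By contrast, the enzymes of sulfate reduction hardly differed untreated. MET3, the sulfate adenylyltransferase, read 2085 and 1825 against 1999 and 1891, and MET5, a sulfite reductase subunit, read 2978 and 2827 against 2229 and 3076. MET8, an enzyme of sirohaem synthesis, was lower by 0.49 on both sgs1 null arrays. The list's median lay between 0.31 and 0.43 without any 1 of the 4 untreated arrays, the higher value being that without replicate 1 of wild type. With MMS all 21 members were above 0, with a median of 0.79, and 16 were higher without overlap, against 12.6% of all features there (12.9% were lower).

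**Figure D2:**
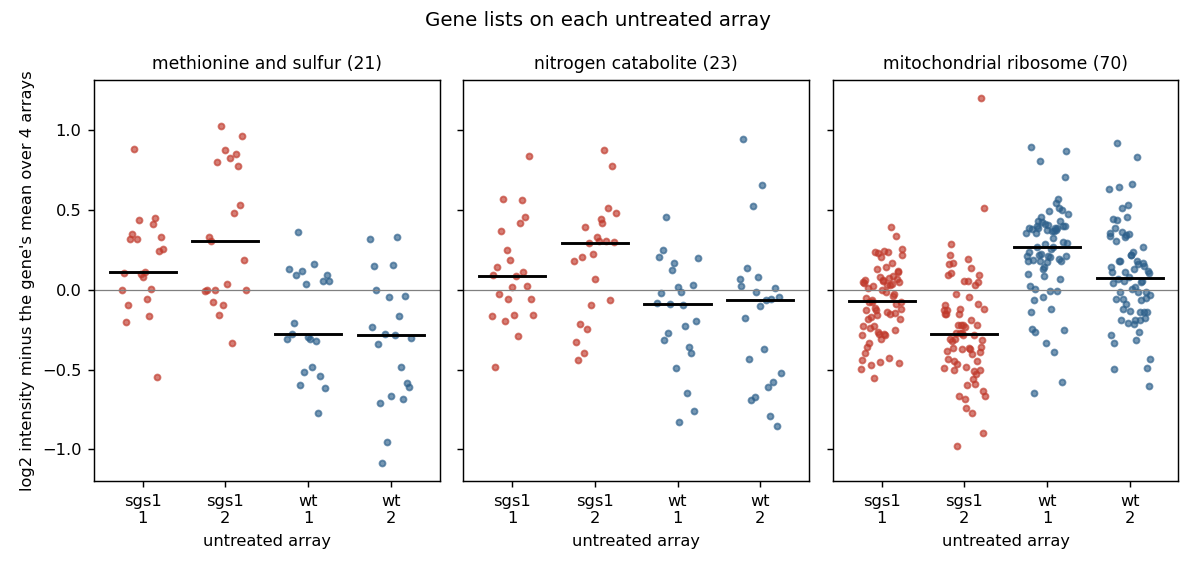
Log2 intensity of each gene minus its mean over the 4 untreated arrays (vertical axis), by array, for the methionine list (21 genes), the nitrogen list (23 genes) and the mitochondrial ribosomal proteins (70 genes). Each point is a gene, and black bars are medians. The methionine medians were 0.11 and 0.30 on the sgs1 null arrays and -0.28 on both wild-type arrays, while the mitochondrial ribosomal medians were -0.07 and -0.28 against 0.27 and 0.07.

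SPS100, HXT5 and GRE1 had some of the widest differences among named genes. HXT5, a hexose transporter made by slowly growing cells, read 2470 and 2273 in sgs1 null and 454 and 477 in wild type, 5.09-fold apart (log2 2.35 ± 0.23). SPS100, a spore wall protein, read 1863 and 2571 against 219 and 287, 8.72-fold apart (3.12 ± 0.27). GRE1, a hydrophilin made under osmotic and other stress, read 6119 and 4506 against 740 and 551, a difference of 3.04 ± 0.39 (adjusted p = 0.134). None of the 3 overlapped between the strains untreated. The hexose transport list, to which HXT5 belongs, had a median of 0.20 over 15 genes. Under median centring it was -0.00, against -0.05 over all features there. With MMS, HXT5 and GRE1 differed by 1.14 and 2.40. SPS100 differed by 0.59 there, where it read 1046 and 1509 in sgs1 null and 770 and 899 in wild type, and its interaction was -2.53 ± 0.38 with an adjusted p of 0.812. Without a floor, and likewise with the dimmest 25% of features left out, SPS100, HXT5 and GRE1 all passed the threshold untreated.

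The general stress list as a whole was not shifted one way. The list of general stress and reserve carbohydrate genes had 32 members, 16 above 0 and 16 below, with a median of -0.00. Under median centring it was -0.22, against -0.05 over all features there. Besides GRE1, its largest difference was that of SIP18, a relative of GRE1 in function, which read 4689 and 2384 against 1428 and 571 (1.89 ± 0.60, adjusted p = 0.426). Of the 27 heat shock and chaperone genes 0 passed, and the median was 0.07. Under median centring it was -0.10, against -0.05 over all features there. Without overlap, 12 were higher and 2 lower, against 19.3% and 19.6% of all features. BTN2, a sorting factor for misfolded proteins, read 8187 and 9556 against 2688 and 2344, a difference of 1.82 ± 0.22 (adjusted p = 0.126). SSA3, an Hsp70 made on stress, read 4260 and 4660 against 1529 and 1495 (1.56 ± 0.41, adjusted p = 0.346). HSP82, the inducible Hsp90, read 13264 and 11995 against 13341 and 10777. Of the glucose-repressed and gluconeogenic genes, SIP4, an activator of gluconeogenesis, read 983 and 859 against 274 and 262 (1.78 ± 0.58). ADH2, the glucose-repressed alcohol dehydrogenase, lay on the other side, with 938 and 1271 against 2735 and 2652 (-1.30 ± 0.15, adjusted p = 0.126). The median over the 22 genes of that list was -0.08. On the deposited scale it was 0.05, against 0.03 over all features there.

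Among the subtelomeric COS genes, which encode related membrane proteins, 1 member stood apart with the floor in place. COS8 read 2333 and 1940 in sgs1 null and 434 and 531 in wild type, 4.43-fold apart (log2 2.15 ± 0.18). With MMS it read 1663 and 2028 against 398 and 469, and averaged over both conditions it rose with an adjusted p of 0.0209. COS6 read 5586 and 4880 against 2073 and 3225 (1.01 ± 0.29, adjusted p = 0.363). The median over the 7 COS genes measured was 0.37, with 6 above 0, and it was 0.72 without replicate 2 of untreated sgs1 null and 0.87 with no floor. With no floor, COS7 and COS12 passed the threshold beside COS8, both untreated and in the average. With the floor they differed by 0.23 ± 0.20 and 0.37 ± 0.28 untreated. COS genes are close copies of each other, so their probe sets may read more than 1 of them. Genes within the first 10 of a chromosome end, 181 in all, were higher without overlap in 27.1% and lower in 19.9%, against 19.3% and 19.6% of all features. At least 2-fold higher without overlap were 4.97% of these end genes, against 3.21% of all features and 1.86% of named genes, and the median difference was 0.00.

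The remaining genes of the higher set had varied roles. SHH3, a relative of a succinate dehydrogenase subunit, read 2205 and 1867 against 462 and 371 (log2 2.29 ± 0.21), and 655 and 616 against 254 and 179 with MMS. It rose in the average over both conditions (adjusted p = 0.0406), as did YIR043C (adjusted p = 0.0209), which read 217 and 226 against the floor on both wild-type arrays, at least 2.28-fold apart. YHR033W read 1160 and 983 against 191 and 267 (2.24 ± 0.23). DPB2, a subunit of DNA polymerase epsilon, read 926 and 977 against 379 and 374 (1.34 ± 0.13). JJJ1, a co-chaperone of ribosome maturation, read 249 and 277 against 116 and 106 (1.24 ± 0.12). PUG1, a transporter of protoporphyrin and haem, read 474 and 450 against 229 and 247 (0.96 ± 0.10). These last 3 genes differed by 0.15, 0.14 and 0.08 on the MMS arrays, where the strains read close together. Outside this set, PHO89, the sodium-coupled phosphate transporter, read 532 and 979 against 142 and 115 (2.50 ± 0.37, adjusted p = 0.161), while the other phosphate genes brought the list's median over 15 members to -0.04. That median was 0.15 without replicate 1 and -0.20 without replicate 2 of untreated sgs1 null.

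At the 2-fold mark fewer named genes were lower in sgs1 null than higher, 41 against 104. These were 0.735% and 1.86% of named genes, against 1.28% and 3.21% of all features. Without that mark, 1167 of 5580 named genes were lower without overlap and 946 were higher, against 19.6% and 19.3% of all features. ARO10, the decarboxylase that turns the keto acids of aromatic amino acids into fusel aldehydes, read 848 and 1029 in sgs1 null and 2363 and 2184 in wild type, 2.43-fold apart (log2 -1.28 ± 0.16, adjusted p = 0.126). With MMS it read 1054 and 1299 against 4069 and 4483. It fell in the average over both conditions, with an adjusted p of 0.0323. ARO9, the aminotransferase that acts before it, read 1916 and 1880 against 3330 and 4354 untreated (2.01-fold apart, adjusted p = 0.447) and differed by -1.55 with MMS. ARO80, the activator of both genes, read 248 and 434 against 223 and 155, higher on both sgs1 null arrays by 0.82 ± 0.42. Of the 6 genes of aromatic amino acid breakdown 4 were below 0, with a median of -0.57, or -0.29 without replicate 2 of wild type.

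OPT2, a transporter of peptides and glutathione, read 712 and 815 against 1776 and 1632 (-1.16 ± 0.12, adjusted p = 0.0858), and 620 and 619 against 1228 and 1410 with MMS. It also fell in the average (adjusted p = 0.0323). SFG1, a regulator of filamentous growth, read 268 and 206 against 844 and 1041 (-2.00 ± 0.24), and both strains were near the floor with MMS. DAN1, a cell wall mannoprotein of anaerobic cells, read 181 and 197 against 353 and 345 (-0.89 ± 0.08, adjusted p = 0.0858). With the floor at the 20th percentile DAN1 passed the threshold. That floor lay above both sgs1 null readings and every MMS reading of DAN1. Those readings then added no spread to the test, and the sgs1 null level was only a bound. YPT31, a Rab GTPase of the Golgi, read 2809 and 3175 against 4743 and 5449. TRM10, a tRNA methyltransferase, read 448 and 415 against 720 and 677. YPR1, an aldo-keto reductase, read 2822 and 2883 against 4066 and 4207, and MYG1 read 1572 and 1687 against 2437 and 2421. The last 4 were less than 2-fold apart, and of them YPR1 kept a like difference with MMS, -0.42, while YPT31 and MYG1 differed by 0.06 and 0.23.

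Most mitochondrial ribosomal protein genes read lower in sgs1 null. Their products build the ribosome that translates mitochondrial DNA. The list was taken by gene name from the genes measured with 1 symbol, so others of the family are not counted. Of its 70 members 0 passed the threshold, while 59 were below 0 and 11 above. The median was -0.34 against 0.00 over all features. The groups did not overlap in 31 members that were lower and 3 that were higher, against 19.6% and 19.3% of all features. MRPL8 read 1274 and 1000 in sgs1 null against 2205 and 3040 in wild type (-1.20 ± 0.33, adjusted p = 0.355). IMG1 read 1642 and 1648 against 2962 and 3592 (-0.99 ± 0.17, adjusted p = 0.196). RSM23 went the other way with 288 and 910 against 332 and 282, through 1 array. The list's median lay between -0.49 and -0.21 under all alternatives, the smallest size being that without replicate 2 of untreated sgs1 null. On the MMS arrays 69 of 70 members were below 0, with a median of -0.36. Without overlap there, 34 were lower and 0 higher, against 12.9% and 12.6% of all features on those arrays.

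The 80 cytosolic ribosomal protein genes, taken by name in the same way, had a median of -0.15, with 59 below 0. Without overlap, 34 were lower and 6 higher, against 19.6% and 19.3% of all features. Their median was -0.25 without replicate 1 of untreated sgs1 null and -0.09 without replicate 2. Under median centring it was -0.39, against -0.05 over all features there. With MMS it was -0.09. The 41 ribosome biogenesis genes had a median of 0.17, with 28 above 0, or 0.03 without replicate 2 of wild type. The list of nuclear genes for the respiratory chain and ATP synthase had a median of 0.16 over 33 genes. Under median centring it was -0.02, against -0.05 over all features there. In that list 13 genes were higher without overlap and 1 was lower, against 19.3% and 19.6% of all features.

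Several lists that were low in untreated sgs1 null were not low with MMS. The adenine list had 14 genes, among them the regulator BAS1 and the IMD genes of the guanine branch. Its median was -0.46 untreated and 0.05 with MMS. Of the 14 genes, 12 were below 0 untreated, and without overlap 9 were lower and 2 higher, against 19.6% and 19.3% of all features. ADE2, a step of the purine pathway, read 3367 and 2664 against 5505 and 5567 (-0.89 ± 0.29, adjusted p = 0.433). ADE4, the first enzyme of the pathway, was higher, with 182 and 273 against 120 and a value at the floor. The list's median was -0.23 without replicate 2 of untreated sgs1 null. HIS4, an enzyme with several steps of histidine synthesis, read 4533 and 2935 against 8584 and 10674 (-1.39 ± 0.26, adjusted p = 0.232). With MMS it differed by -0.23.

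The medians of the histone and cell cycle lists were also below 0 untreated. Of the 5 histone genes with probe sets of their own, 3 were below 0 and 2 above. Their median was -0.64, with 0.03 on the MMS arrays. HHO1, the linker histone, read 948 and 584 against 1488 and 1924 (-1.19 ± 0.43, adjusted p = 0.456), and HTB2, a histone H2B gene, read 2701 and 2693 against 4038 and 4868. HTB1, the other H2B gene, was higher on both sgs1 null arrays, 9171 and 12658 against 8395 and 8600. CSE4 differed by 0.02 ± 0.42, and its groups overlapped. The histone median was -0.42 without replicate 2 of wild type. The 20 mitotic genes had a median of -0.30 untreated and 0.27 with MMS, and the untreated median was -0.11 without replicate 1 of wild type. The 15 daughter-specific and early G1 genes had a median of -0.40 untreated, with 14 below 0, and -0.31 with MMS. Without replicate 1 of untreated sgs1 null it was -0.24. EGT2, which helps mother and daughter separate, read 976 and 1314 against 1841 and 1903 (-0.73 ± 0.16, adjusted p = 0.301), and differed by -0.72 with MMS. FAR1, the inhibitor that arrests cells in G1 on pheromone, read 502 and 323 against 949 and 982 (-1.26 ± 0.33, adjusted p = 0.346). With MMS its difference was 0.39, and the change between the 2 was 1.65 ± 0.46 (adjusted p = 0.997). The labels gave no budding counts or cell numbers, and fewer cells in a phase cannot be told apart from less RNA per cell.

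Genes of the DNA damage response were near or slightly above wild type. Of the 16 damage-inducible markers 0 passed, 12 were above 0, and the median was 0.15. It was 0.01 without replicate 1 of wild type and was 0.34 without replicate 1 of untreated sgs1 null. HUG1, a small protein induced by the checkpoint, read 2505 and 2857 in sgs1 null and 1293 and 1716 in wild type (0.84 ± 0.23, adjusted p = 0.355). DUN1, the kinase that controls ribonucleotide reductase, read 1007 and 1073 against 783 and 637 (0.56 ± 0.15, adjusted p = 0.350). RNR3, a damage-induced subunit of that enzyme, read 523 and 465 against 225 and 517, and overlapped. RNR2 and RNR4, the small subunits, differed by 0.09 ± 0.18 and 0.21 ± 0.11. In the checkpoint list of 18 genes 14 were above 0, with a median of 0.20, or 0.03 without replicate 2 of wild type. RAD9, the checkpoint adaptor, read 305 and 797 against 185 and 139 (1.62 ± 0.57, adjusted p = 0.454), and the spread between its sgs1 null arrays was wide. Where MMS damaged the DNA of both strains, the medians of these lists were -0.05 and -0.04.

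Autophagy genes, which recycle cell contents, were mostly above 0 untreated, with 12 of 17 members. ATG9, the membrane protein that seeds the autophagosome, read 344 and 403 against 180 and 142 (1.22 ± 0.16, adjusted p = 0.142). With MMS it read 458 and 400 against 287 and 265, a difference of 0.63. ATG1, the kinase that starts the process, read 427 and 700 against 257 and 285 (1.01 ± 0.49). In 11 of 17 members the groups did not overlap with sgs1 null higher, and in 4 with it lower, against 19.3% and 19.6% of all features. The list's median was 0.26 untreated and 0.02 with MMS, and the change in the list between the 2 was not tested. It was 0.42 without replicate 1 of wild type and 0.11 with the floor at the 20th percentile. PRC1, a vacuolar protease in the list, was lower, at 9326 and 6143 against 11407 and 10459.

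**Figure D3:**
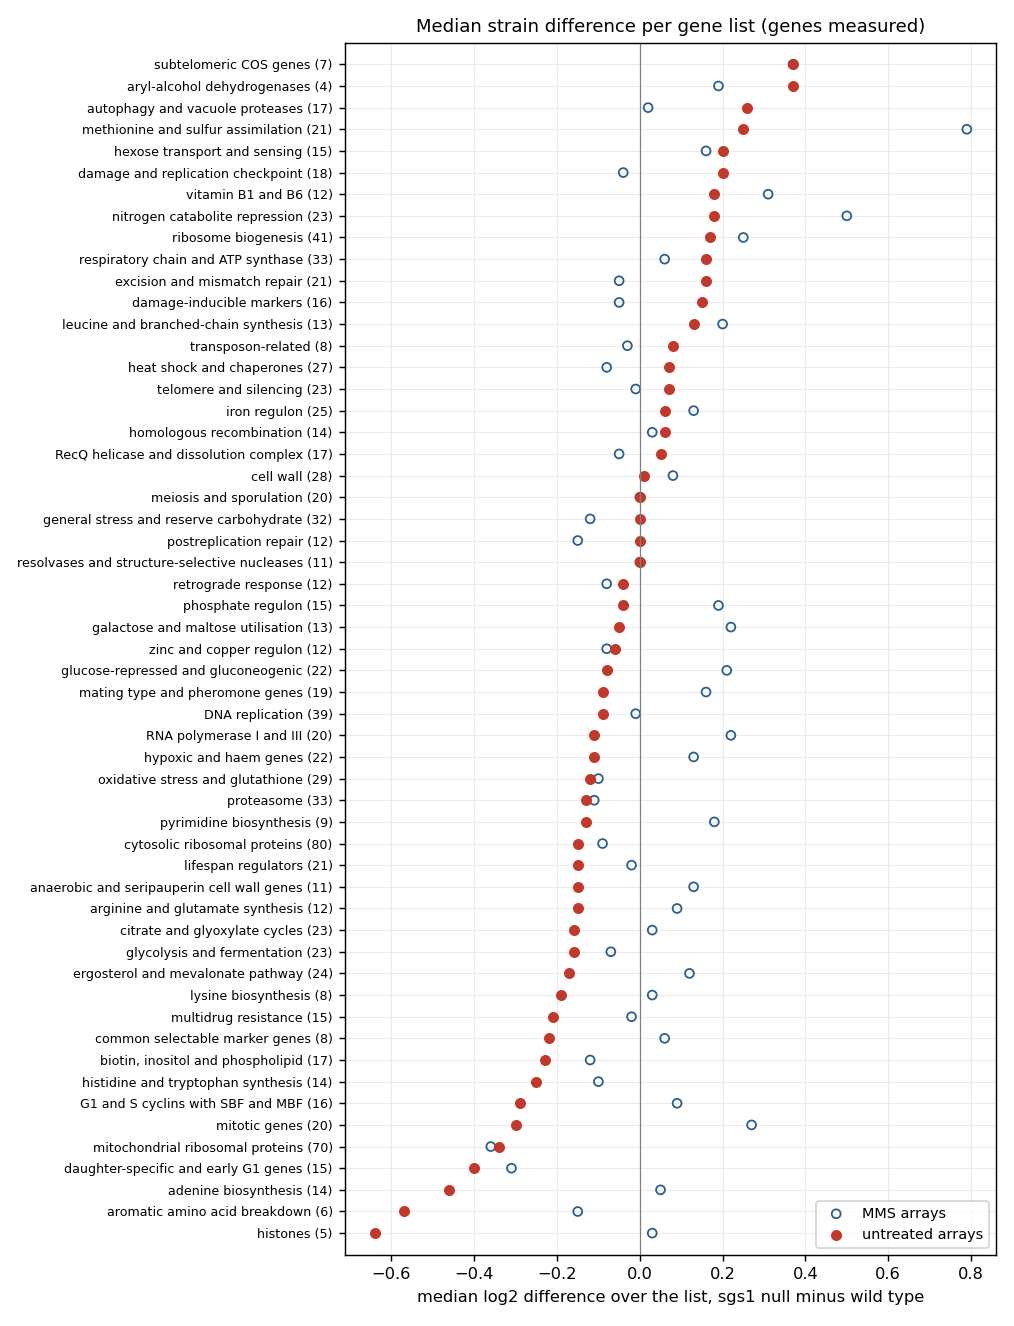
Median log2 strain difference (horizontal axis) over the measured genes of each of 55 lists, with the number of genes in brackets. Filled points are the untreated arrays and open points the MMS arrays. The mitochondrial ribosomal proteins lie at -0.34 and -0.36 on the 2 sets, the methionine list at 0.25 and 0.79, and the histone list at -0.64 and 0.03.

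In all, 56 lists were counted and 55 had a measured member. No list had a member past the threshold in the untreated comparison.

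The untreated difference carried over to the MMS arrays in part. Over the 7384 features not at the floor on all 8 arrays, the 2 sets of differences had a Pearson correlation of 0.38 and 57.7% had the same sign. Features share arrays, so this is a description. No array was used in both differences. Of the 245 features at least 2-fold higher without overlap untreated (3.21% of all), 205 were also above 0 with MMS (83.7%). Over all features that share was 47.2%. Of the 245, 30 were again at least 2-fold higher without overlap with MMS. Those 30 were 12.2% of the untreated set and 38.0% of the 79 in the MMS set. At that mark the MMS arrays had 79 higher and 38 lower of 7641 features. Family probe sets, described below, made up 88 of the 245. Of the 98 at least 2-fold lower (1.28%), 77 were below 0 with MMS and 11 were again at least 2-fold lower, which was 28.9% of the 38 in the MMS set. The median size of the 343 features together was 1.23 untreated and 0.39 with MMS. They were picked by their untreated size, so these 2 values are not a like comparison. Over the 7384 features the median sizes were 0.27 and 0.20. With MMS, 1 of 7641 features passed the adjusted threshold (0.0131%), probe set 3982_at. No feature passed for the difference between the 2 strain differences by limma, where 363 had an unadjusted p under 0.05 and the smallest adjusted p was 0.205.

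**Figure D4:**
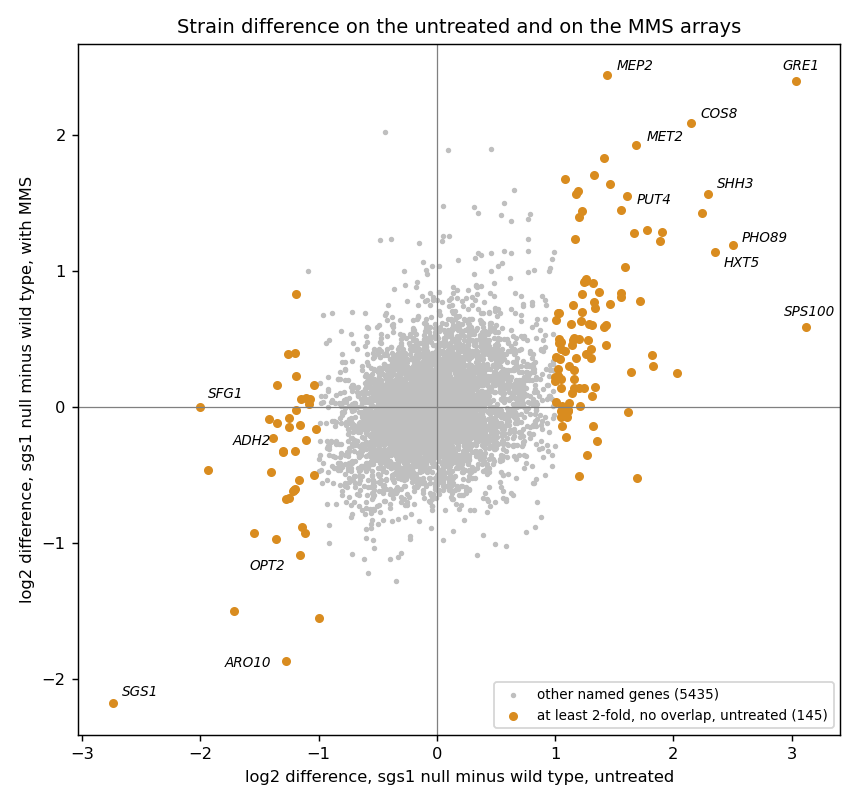
Log2 strain difference, sgs1 null minus wild type, of each named gene on the untreated arrays (horizontal) and on the MMS arrays (vertical). Orange points are the 145 named genes at least 2-fold apart without overlap untreated, 104 higher and 41 lower. PUT4, COS8 and MET2 lie at similar values on both axes, while SPS100 is at 3.12 and 0.59 and SFG1 at -2.00 and 0.00.

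The surplus of higher over lower features at the 2-fold mark lay partly in probe sets that read families of similar sequence. Their identifiers end in _f_at, and 345 of them had no single gene symbol. Their median intensity was 3185 and 5686 on the untreated sgs1 null arrays and 2384 and 2299 on the wild-type arrays. Replicate 2 of sgs1 null thus stood far above the other 3. On the MMS arrays the medians were 4839 and 2939 in sgs1 null and 4214 and 2372 in wild type, with replicate 1 above replicate 2 in both strains. Their median strain difference was 0.75 untreated, and 306 of 345 were above 0. Without overlap, 88 were at least 2-fold higher and 5 at least 2-fold lower, against 3.21% and 1.28% of all features. None of the 345 passed the threshold. Without replicate 2 of untreated sgs1 null, the count of all features at least 2-fold higher without overlap went from 245 to 154, and that of named genes from 104 to 91, of which 65 were in both sets. Without replicate 1 of sgs1 null the counts of all features were 533 higher and 288 lower. They were 366 and 269 without replicate 1 of wild type, and 277 and 120 without replicate 2. The 1716 other probe sets without a single symbol had a median difference of 0.00. Named genes among the brightest 25% of features had a median of -0.12. The part of the family probe sets in the scaling of the other genes was not tested beyond the alternatives in the closing section.

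**Figure D5:**
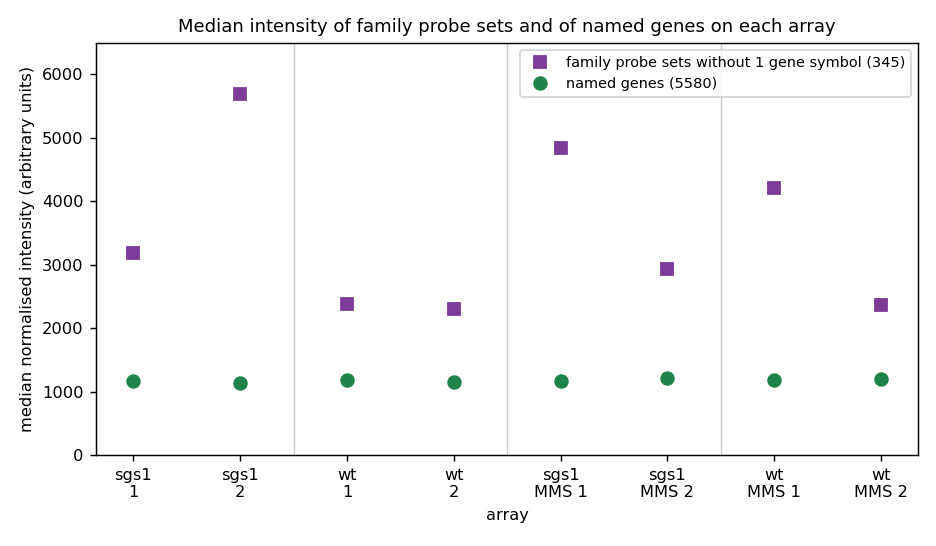
Median normalised intensity (vertical axis, from 0) of the 345 family probe sets without 1 gene symbol and of the 5580 named genes on each of the 8 arrays. Named genes stay between 1143 and 1213. Family probe sets reach 5686 on replicate 2 of untreated sgs1 null, against 3185 on replicate 1.

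By chromosome, genes of chromosome I were the lowest as a group. Their locus names placed 83 measured genes there, with a median difference of -0.26, and 16.9% were above 0, against 45.0% of all features. Without overlap, 30 were lower and 3 higher, against 19.6% and 19.3% of all features. On each array, relative to every gene's mean over the 8 arrays, the chromosome I median was 0.05 and -0.18 in untreated sgs1 null and 0.18 and 0.26 in wild type. Both wild-type arrays were thus above 0 and replicate 2 of sgs1 null below it. Without that replicate the median was -0.09, and without any other of the untreated arrays it lay between -0.38 and -0.24. With MMS it was -0.03. Chromosomes X, XI and XIII had medians of -0.20, -0.14 and -0.12 untreated, and -0.07, -0.03 and -0.05 without replicate 2 of untreated sgs1 null. The other 12 lay between -0.07 and 0.07. No named gene on any chromosome passed the threshold.

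RNA quality controls were not alike on all arrays. The ratio of actin 3′ to 5′ probe sets was 2.28 and 1.88 in untreated sgs1 null and 1.78 and 1.84 in wild type. With MMS the ratio was 3.25 and 2.70 in sgs1 null and 2.23 and 2.07 in wild type. The median of the 18S ribosomal RNA control probe sets was 1416 and 1920 in untreated sgs1 null and 6988 and 1512 in wild type. Replicate 1 of wild type thus stood apart. With MMS the 18S median was 1133 and 196 in sgs1 null and 8767 and 417 in wild type. The part of these controls in the differences above, untreated or with MMS, was not tested.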

How the data were processed

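The RNA of each of 8 samples was hybridised to its own one-colour array. The authors deposited 1 intensity per probe set and array on a linear scale. The labels and headers used here do not record how those values were computed, scaled or background-corrected. The table had 8363 probe sets, and 32 control probe sets and 1 with a missing value were left out. Gene names came from the platform annotation, checked against the RefSeq table of assembly R64, with 0 symbols updated. Of 8330 probe sets, 6269 had 1 symbol, 309 several and 1752 none, and only the first were named. Probe sets of 1 gene were averaged, for 291 genes.

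Arrays were quantile normalised, raised to the 10th percentile, put on the log2 scale and fitted as 4 group means with limma 3.58.1 in R 4.3.3 (4 residual and 0.986 prior degrees of freedom). Tests were two-sided, and p-values were adjusted by Benjamini and Hochberg's method across the 7641 features. The fit was tried on simulated data with normal noise, where differences were added only to features far above the floor. That trial checked the size and sign of the estimates and does not cover dim features. The members, gene lists and rules were chosen with earlier results of these data known. Named genes were SGS1, its partners, those measured of the 5 genes on each side, and 10 per direction with the smallest p. Also named were 2 members per list with the largest difference. Other list members that are named were chosen after their values were seen. Same-numbered arrays deviated together in some group pairs and not in others, with correlations from -0.08 to 0.67, and 0.20 for the untreated pair, so the numbers were not taken as pairs.

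Alternatives tried were median centring, the deposited scale, a floor at the 20th percentile or none, leaving out the dimmest 25%, fitting only the 4 untreated arrays, an intensity trend, the replicate block, unaveraged probe sets and leaving out each array.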

Additional observations from a re-analysis of the deposited data

How the results depend on the processing

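The count of features past the threshold for the untreated strain difference was 2. It was 3 with median centring and 2 with probe sets not averaged. It was 4 on the deposited scale, 6 with the floor at the 20th percentile, 13 with no floor, 10 with the dimmest 25% of features left out, 8 with no floor and the dimmest 25% left out (chosen after seeing the data), 1 with only the 4 untreated arrays and 5 with an intensity trend. With 1 array left out, untreated or MMS, it was 1 to 2. The lone array of the group is then assumed to vary like the other groups. The replicate block by the rep mark gave 3 calls, and 0 with only the 4 untreated arrays, where 898 features had an unadjusted p under 0.05. The block is given for its count alone, since the labels do not say that a number marks a shared batch.

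The count with MMS was 1, and 3 with median centring and 2 on the deposited scale. The difference of the strain differences gave 0 calls, and 1 with the floor at the 20th percentile (DAN1). DAN1 lay below that floor on every array but the untreated wild-type ones, so little spread was left for that test. The average over treatments gave 12 calls, and 4 on the deposited scale, 30 with no floor, 2 with the replicate block and 1, probe set 3982_at, with any 1 array left out.

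Differences of genes near 0 changed sign. PIF1, SLX5 and TOP1 came to 0.06, 0.01 and 0.08 on the deposited scale, where the median over all features was 0.03. SPG5 and HCS1 came to -0.01 and -0.02 with median centring, where that median was -0.05. With an array left out, the differences ranged from -0.50 to 0.02 for MRPS17, -0.12 to 0.65 for RMI1, -0.06 to 0.40 for SPG5, -0.12 to 0.44 for ESC2, -1.02 to 0.47 for SRS2, -0.04 to 0.14 for YMR187C, -0.21 to 0.34 for HCS1, -0.42 to 0.22 for PIF1, -0.12 to 0.24 for SLX8, -0.08 to 0.04 for HSC82, -0.20 to 0.12 for SLX5 and -0.19 to 0.19 for TOP1. The cause was not tested. Promoter motifs were planned and not run, since no promoter sequence was used here. With 2 arrays a group, and with many genes near the floor, small differences could not be told from the spread.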
